A study of Mus musculus with 8 samples.

Results

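Pericytes and vascular smooth muscle cells, together called mural cells, wrap the small vessels of the brain, and 10 genes that mark them were followed across the series: Pdgfrb, Rgs5, Abcc9, Cspg4, Anpep, Vtn, Notch3, Acta2, Tagln and Myh11. The genes were taken by name from a deposited table of 34299 genes, and all 10 were found. Whole mouse brains were compared by RNA-seq of polyadenylated RNA in 3 groups. The first held 3 wild-type (WT) libraries and the second 3 Cav1 knockout (KO) libraries, both from fetal brain at gestation day 15. The third held 2 Cav1 KO libraries from aging brain at week 70. Both KO groups lack Cav1, which encodes caveolin 1, the main coat protein of the membrane pits called caveolae. The labels give no strain, sex, litter or batch, and a WT group at week 70 was not analysed here, so that age was compared within the KO.

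Pericytes sit within the basement membrane of capillaries and are drawn to growing vessels by PDGF-B, a ligand that endothelial cells release and that the receptor encoded by Pdgfrb binds. Smooth muscle cells surround arteries and arterioles, receive Jagged and Delta signals through Notch3 and contract through smooth muscle actin and myosin, whose genes respond to the serum response factor SRF and its cofactor myocardin. Both cell types are rich in caveolae. In bulk RNA, fewer mural cells and less of a transcript per cell cannot be told apart.

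In the fetal brain, 8 of the 9 member genes that could be tested were lower in KO than in WT, by log2 fold changes from -1.51 to -2.07, and 1, Rgs5, was higher, by 0.62. Of all tested genes, 32.5% were called lower and 30.1% higher in the same comparison. At week 70 the KO levels of the members had parted. The means of Rgs5, Vtn, Acta2 and Myh11 stood above those of both fetal groups. Pdgfrb, Cspg4 and Anpep lay between the fetal KO and fetal WT means. Abcc9 stayed near its fetal KO level, and the means of Notch3 and Tagln were the lowest of the 3 groups. Not called were Rgs5 and Abcc9 between the KO ages, and Acta2, Cspg4 and Anpep against fetal WT. Tagln was too scarce to be tested. Each value below is a normalised CPM, the read count relative to the library total after scaling of the libraries by TMM, unless a count is named. A gene was called where edgeR's quasi-likelihood test gave a Benjamini-Hochberg adjusted p under 0.05 over all genes tested.

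All 10 are protein-coding genes, and the positions below are those of GENCODE M21 on GRCm38, since the build behind the counts is not given in the sources used here. On the plus strand lie Pdgfrb (ENSMUSG00000024620) at chr18:61045150-61085061, Rgs5 (ENSMUSG00000026678) at chr1:169655501-169695813, Cspg4 (ENSMUSG00000032911) at chr9:56865033-56899870 and Vtn (ENSMUSG00000017344) at chr11:78499091-78502324. On the minus strand lie Abcc9 (ENSMUSG00000030249) at chr6:142587862-142702315, Anpep (ENSMUSG00000039062) at chr7:79821803-79861059, Notch3 (ENSMUSG00000038146) at chr17:32120820-32166852, Acta2 (ENSMUSG00000035783) at chr19:34241090-34255590, Tagln (ENSMUSG00000032085) at chr9:45929619-45936058 and Myh11 (ENSMUSG00000018830) at chr16:14194535-14291372. Counts were taken over whole genes, so that isoforms cannot be told apart.

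Total counts ranged from 19414747 to 20833397 in WT day 15, from 14110031 to 15245283 in KO day 15 and from 18924304 to 20203233 at week 70, so that depth separated the fetal genotypes and a batch, if there was one, cannot be told apart from genotype. Cav1 itself had 367, 218 and 329 counts across the WT brains, 0, 3 and 1 across those of KO day 15, and 1 and 5 at week 70. Of the brain's neural progenitor markers, 8 of 8 were present, with a summed level of 1549 to 1611 CPM in WT and 1208 to 1311 in KO day 15. The libraries labelled WT day 15 replicate 1 and KO day 15 replicate 2 carried more RNA of connective tissue and muscle than the others of their groups. The 12 fibroblast and meninges markers summed to 4597 CPM in WT replicate 1 against 347 CPM in the lowest WT library, and to 162 CPM in KO replicate 2 against 83.4 CPM in the lowest KO library. The counts of called genes at day 15, Anpep and Acta2 are therefore also given without them where the value moves.

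**Figure D1:**
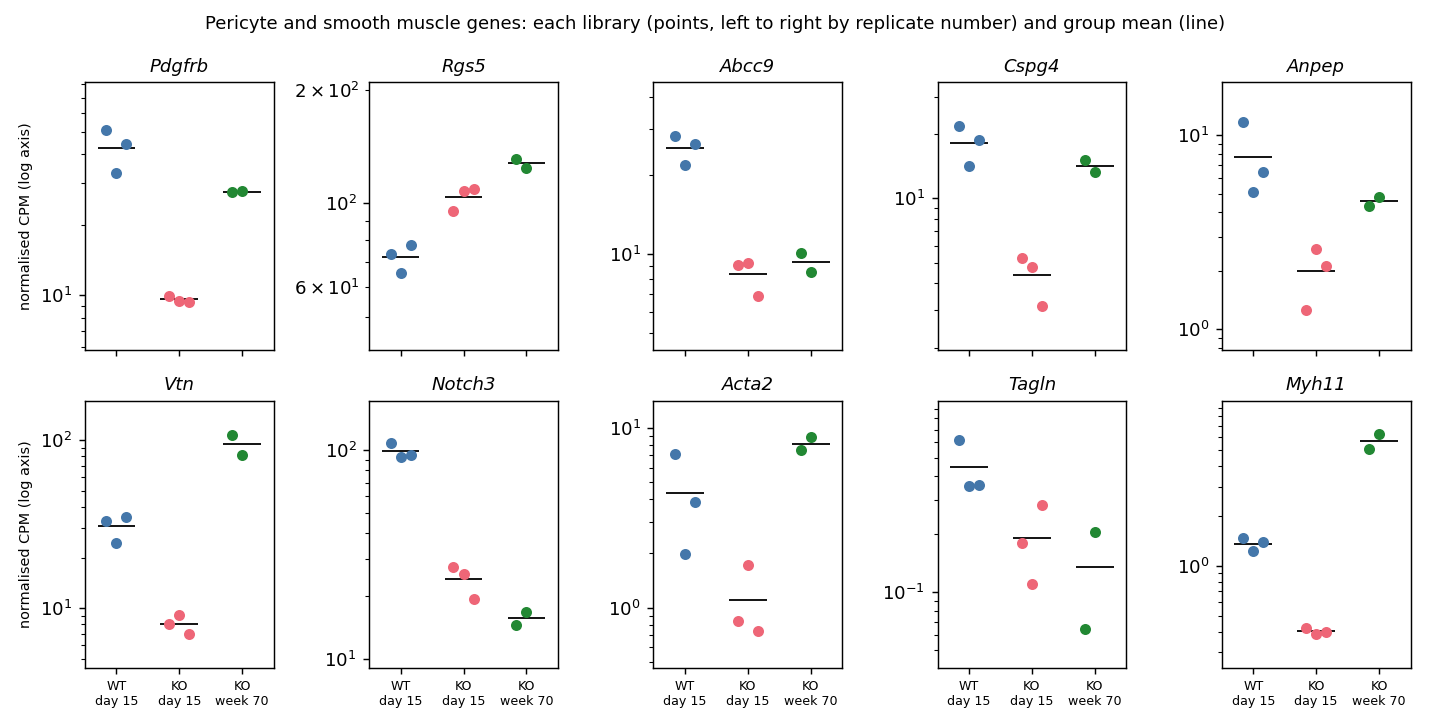
Normalised CPM of the 10 genes on log axes, with 1 point for each library, ordered from left to right by replicate number, and a line at the group mean. The fetal KO points lie below the WT points for 9 genes and above them for Rgs5, where KO ranges from 95.3 to 109 and WT from 65.5 to 77.6 CPM.

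The receptor gene Pdgfrb, on which pericyte recruitment depends, had 1067, 654 and 858 counts across the WT brains (replicates 1, 2 and 3) and 166, 171 and 164 across those of KO day 15. All 3 KO libraries lay far below the lowest WT library and within a narrow range of each other. The mean level of 42.8 ± 8.8 CPM for WT compared with 9.57 ± 0.317 CPM for KO (SD, n = 3 each), and the edgeR log2 fold change was -2.07 (adjusted p 5.47e-07, SE 0.141). Only 1.24% of all tested genes had a lower log2 fold change. At week 70 Pdgfrb had 426 and 408 counts, or 27.7 ± 0.348 CPM (SD, n = 2). Both libraries lay between the fetal groups: against KO day 15 the log2 fold change was 1.44 (edgeR adjusted p 1.5e-06, SE 0.124), and against WT day 15 it was -0.59 (edgeR adjusted p 0.0155, SE 0.173). The last call was lost without week 70 replicate 1 (edgeR adjusted p 0.061) or replicate 2 (edgeR adjusted p 0.0577), while the log2 fold change was -0.59 in each. These fits have 1 library at week 70, which is assumed to vary like the WT libraries.

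Rgs5, a regulator of G protein signalling that is among the most abundant pericyte transcripts, went the other way at day 15. Its counts were 1538, 1283 and 1510 across the WT brains, 1593, 1950 and 1917 across those of KO day 15, and 2033 and 1817 at week 70. The KO libraries were higher although they were shallower, and no KO value overlapped a WT value. Mean levels were 72.1 ± 6.16 CPM in WT, 104 ± 7.6 in KO day 15 (SD, n = 3 each) and 128 ± 4.64 at week 70 (n = 2). The edgeR log2 fold change between the fetal genotypes was 0.62 (adjusted p 5.16e-05, SE 0.0778). Week 70 exceeded fetal WT by 0.86 (edgeR adjusted p 6.51e-05). Between the KO ages the value was 0.20 with an edgeR adjusted p of 0.0716, which missed the threshold.

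The scaling of the libraries drops out when 2 genes are compared within a library. A trend with the GC content of the transcript, described below, does not drop out. That content is 41.1% for Rgs5 and 54.9% for Pdgfrb. With the correction given there, the day 15 log2 fold changes were 0.24 for Rgs5 and -1.28 for Pdgfrb. For the other genes of this paragraph they ran from -1.66 (Vtn) to -0.76 (Notch3). Per count of Pdgfrb, the WT libraries held 1.44, 1.96 and 1.76 counts of Rgs5, the KO day 15 libraries 9.6, 11.4 and 11.7, and the week 70 libraries 4.77 and 4.45. The 3 groups did not overlap in this ratio. The ratio of Vtn to Pdgfrb, from 0.65 to 0.794 in WT and from 0.756 to 0.959 in KO day 15, overlapped between the fetal genotypes, as did Notch3 to Pdgfrb, at 2.13 to 2.78 and 2.07 to 2.77. Cspg4 to Pdgfrb overlapped too, at 0.424 to 0.43 in WT and 0.335 to 0.53 in KO. Abcc9 to Pdgfrb, at 0.558 to 0.653 in WT and 0.738 to 0.977 in KO, and Myh11 to Pdgfrb, at 0.0291 to 0.0367 and 0.0409 to 0.0427, did not overlap, but were apart by far less than Rgs5.

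**Figure D2:**
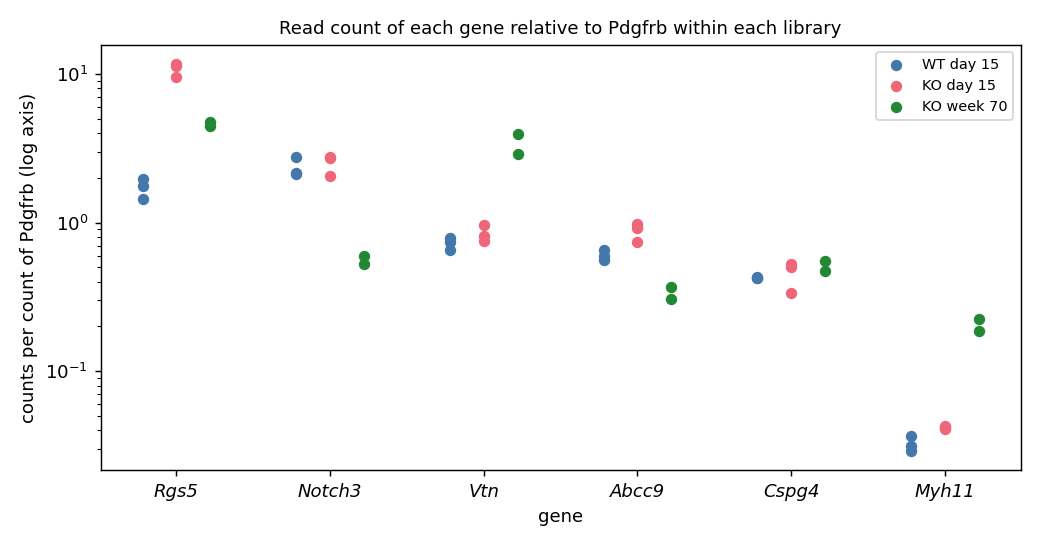
Read counts of 6 genes divided by the count of Pdgfrb in the same library, on a log axis, with 1 point for each library. Rgs5 is set apart in all 3 groups, and Vtn and Myh11 are higher, Notch3 and Abcc9 lower, in the week 70 libraries than in any fetal library.

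Among the other pericyte surface and channel genes, Abcc9 encodes the sulfonylurea receptor SUR2, a subunit of the ATP-sensitive potassium channel of mural cells. It had 595, 427 and 514 counts across the WT brains, 152, 167 and 121 across those of KO day 15, and 157 and 124 at week 70. The fetal genotypes did not overlap, whereas both KO ages did. Its log2 fold change was -1.51 between the fetal genotypes (edgeR adjusted p 4.08e-06, SE 0.136) and 0.05 between the KO ages (edgeR adjusted p 0.808, SE 0.196), the latter with a sign that turned between settings. Against fetal WT, week 70 was lower by a log2 fold change of -1.42 (edgeR adjusted p 0.000179).

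Cspg4 encodes the NG2 proteoglycan, a surface protein of pericytes that oligodendrocyte precursors carry as well. Its counts were 459, 278 and 364 across the WT brains, 88, 86 and 55 across those of KO day 15, and 235 and 194 at week 70. The fetal groups were apart, and the week 70 libraries overlapped the WT range of 14.2 to 21.9 CPM. The log2 fold changes were -1.97 at day 15 (edgeR adjusted p 1.14e-05, SE 0.203), 1.6 between the KO ages (edgeR adjusted p 6.67e-05, SE 0.224) and -0.32 for week 70 against fetal WT (edgeR adjusted p 0.181, SE 0.204). Of the 9 other oligodendrocyte precursor markers, 6 of 8 tested were called lower in KO at day 15, led by Olig2 (-1.17) and Olig1 (-1.14), and 7 of 9 higher at week 70 than in KO day 15. With the correction for transcript length and GC content described below, 2 of the 8 were called lower at day 15, and their median went from -0.95 to -0.42. Their summed level was 966 to 994 CPM in WT, 680 to 754 in KO day 15 and 1203 to 1284 at week 70, with none of the 9 at 0 in the week 70 libraries. In WT most of the sum was Ptprz1 and Vcan, at means of 445 and 337 CPM. At week 70 Vcan was at 13.2 CPM, and Cspg5 (505) and Olig1 (280) were the largest. The sums therefore rest on unlike genes in the fetal and the aging brain. The part of these precursors in the Cspg4 result was not tested.

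Anpep, the gene for aminopeptidase N (CD13), a peptidase on the pericyte surface, varied most within WT among the pericyte genes. It had 246, 100 and 126 counts across the WT brains, 21, 47 and 37 across those of KO day 15, and 67 and 70 at week 70. WT replicate 1 stood above the other 2, yet the lowest WT library still exceeded the highest KO library, at 5.1 against 2.6 CPM. The fetal log2 fold change was -1.87 (edgeR adjusted p 0.000714, SE 0.339), and -1.47 without WT replicate 1. Week 70 was above KO day 15 by 1.09 (edgeR adjusted p 0.0102), and its log2 difference of -0.74 from fetal WT was not called (edgeR adjusted p 0.106). With the correction for transcript length and GC content described below, the difference from fetal WT was -0.88 and called (edgeR adjusted p 0.0439).

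Vtn encodes vitronectin, an adhesive glycoprotein that brain pericytes and the liver secrete. Its counts were 694, 481 and 681 across the WT brains, 135, 164 and 124 across those of KO day 15, and 1670 and 1184 at week 70. The 3 groups were apart, with week 70 highest and fetal KO lowest. The means were 30.9 ± 5.56 CPM in WT, 8.06 ± 1 in KO day 15 (SD, n = 3 each) and 94.4 ± 18.8 at week 70 (n = 2). The log2 fold changes were -1.85 between the fetal genotypes (edgeR adjusted p 1.59e-06, SE 0.146), 3.45 between the KO ages (edgeR adjusted p 5.81e-09, SE 0.147) and 1.65 for week 70 against fetal WT (edgeR adjusted p 9.27e-05, SE 0.178). Vtn was at 108 CPM in week 70 replicate 1 and at 81.1 CPM in replicate 2, libraries that also differed in markers of liver. The 7 liver markers in the table summed to 314 to 407 CPM in WT, 306 to 379 in KO day 15, and 766 and 2943 in week 70 replicates 1 and 2. Most of that sum came from genes that brain cells express as well: Ttr, the transthyretin gene of the choroid plexus, was read 910 and 32809 times at week 70, and Trf, the transferrin gene of oligodendrocytes, 10721 and 10130 times. Alb, the albumin gene, was read 163 and 2 times there, and 0, 0 and 25 times across the WT brains and 90, 0 and 101 times across those of KO day 15. At day 15 edgeR called 1 of the 4 liver markers tested lower in KO, Trf (-0.79), and 2 higher, Apoa1 (1.82) and Alb (3.21). Without WT replicate 1, 1 of 6 liver markers tested was called lower and 1 higher. Without KO replicate 2, 1 of 6 liver markers tested was called lower and 3 higher. Their part in the Vtn result was not tested.

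The signalling receptor Notch3 is required for smooth muscle identity in brain arteries. It had 2274, 1819 and 1855 counts across the WT brains, 459, 462 and 339 across those of KO day 15, and 224 and 245 at week 70. Its week 70 libraries were the lowest, below both fetal groups without overlap. Its log2 fold changes were -1.95 between the fetal genotypes (edgeR adjusted p 1.46e-07, SE 0.109), -0.72 between the KO ages (edgeR adjusted p 0.00186, SE 0.162) and -2.63 for week 70 against fetal WT (edgeR adjusted p 7.15e-07, SE 0.111). Neural progenitors of the fetal brain also express Notch genes. At day 15, 7 of 8 progenitor markers were called lower in KO, beside 32.5% of all tested genes. Nes (-2.40) and Vim (-1.41) led them, and Fabp7 was higher (1.52). With the correction for transcript length and GC content described below, 5 were called lower, and Fabp7 was at 0.51. At week 70, 6 of 8 were lower than in KO day 15, beside 44.4% of all tested genes. The summed level was 1549 to 1611 CPM in WT, 1208 to 1311 in KO day 15 and 1110 to 1154 at week 70. Most of it was Fabp7 in KO day 15, at a mean of 775 CPM against 287 in WT. At week 70 most was Slc1a3, at 900 CPM against 70.7 in KO day 15. None of the 8 was at 0, and their part in the Notch3 result was not tested.

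The contractile genes were scarce in the fetal brain. Acta2, for smooth muscle alpha-actin, had 149, 39 and 75 counts across the WT brains, 14, 31 and 13 across those of KO day 15, and 116 and 129 at week 70. The fetal groups were apart by a small gap, from 1.71 CPM in KO replicate 2 to 1.99 in WT replicate 2. The edgeR log2 fold change at day 15 was -1.88 (adjusted p 0.00482, SE 0.462), -1.33 without WT replicate 1 and -2.36 without KO replicate 2. In both fetal groups the library with the most Acta2 was also that with the most skeletal muscle RNA: cardiac actin, Actc1, was read 167, 3 and 4 times across the WT brains and 4, 47 and 11 times across the fetal KO brains. The 12 markers of skeletal and cardiac muscle summed to 66.3 CPM in the highest and 11.7 in the lowest WT library, to 7 to 22.4 CPM in KO day 15 and to 39.5 to 43.9 at week 70, where Actc1 was at 0 in both. Of the 7 tested at day 15, 1, Myh8, was called lower (-2.92, edgeR adjusted p 0.000825) and 0 higher, as without KO replicate 2, and 2 called higher and 1 lower without WT replicate 1. Their part in the Acta2 result was not tested. Between the KO ages Acta2 rose by a log2 fold change of 2.78 (edgeR adjusted p 2.37e-05, SE 0.34). Against fetal WT the value of 0.95 was not called (edgeR adjusted p 0.0944), but without WT replicate 1 it was 1.51 and called (edgeR adjusted p 0.00764).

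Myh11, the smooth muscle myosin heavy chain and the most specific of the contractile genes, had 31, 24 and 27 counts in WT, 7 in each KO day 15 library, and 79 and 91 at week 70. The 3 groups were apart. The log2 fold changes were -1.66 between the fetal genotypes (edgeR adjusted p 0.000783, SE 0.306), 3.70 between the KO ages (edgeR adjusted p 2.01e-06, SE 0.332) and 2.08 for week 70 against fetal WT (edgeR adjusted p 0.000177, SE 0.252). Tagln, the gene for the actin-binding protein transgelin, held 13, 7 and 7 counts across the WT brains, 3, 2 and 5 across those of KO day 15, and 1 and 3 at week 70, too few for the filter, so that it was not tested in the fits reported here. In the reference annotation 67.9% of its exon bases are shared with genes on the opposite strand, mostly with Gm48529. The strand setting of the counting is not given in the sources used here, so the Tagln counts are uncertain. Notch3 shares 6.03% of its exon bases and Abcc9 1.89% with antisense genes, and the other 7 share none.

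Over the members, edgeR called 8 of 9 tested genes lower in KO at day 15 and 1 higher, beside 32.5% and 30.1% of all tested genes. All 9 tested members were without overlap of CPM between the fetal genotypes, against 68.5% of all tested genes, and so was Tagln, which was not tested. The median log2 fold change of the 9 was -1.87, beside 0.03 over all 19147 tested genes. Without WT replicate 1, and likewise without KO replicate 2, the count was again 8 lower and 1 higher. RNA of red blood cells moved with the genotype at the same time. Of 8 erythroid genes, 6 were called higher in KO at day 15, led by the adult globin genes Hbb-bs (2.44) and Hbb-bt (2.25), and 1, the embryonic globin gene Hbb-y, lower (-0.95), with a median of 1.42. They summed to 1052 to 1334 CPM in WT, 3547 to 4387 in KO day 15 and 479 to 772 at week 70. Of 8 microglia markers, 3 were called lower, led by Csf1r (-1.78) and Cx3cr1 (-1.16), and 1, P2ry12, higher (0.67). The third lower gene, Tmem119, had 324, 35 and 53 counts across the WT brains. Without WT replicate 1, 3 were called lower and 2 higher, and without KO replicate 2, 2 and 1. With the correction for transcript length and GC content described below, 2 were called lower and 0 higher. P2ry12 was then at -0.17 (edgeR adjusted p 0.429). The part of red blood cells and microglia in the member results was not tested. Over all genes 48.1% of the calls were higher in KO. That share was 60.8% with upper-quartile scaling, which moved the median of all genes from 0.03 to 0.20 and left the member count as it was.

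Between the KO ages, 6 of the 9 were called higher at week 70 and 1, Notch3, lower, beside 37.6% and 44.4% of all genes. The members' median was 1.44, and that of all 20000 tested genes was -0.19, or -0.44 with upper-quartile scaling. Week 70 against fetal WT, where genotype and age differ together and cannot be told apart, gave 3 members higher (Rgs5, Vtn and Myh11) and 3 lower (Pdgfrb, Abcc9 and Notch3), beside 36.7% and 41.9% of all genes, and the median of the 9 was -0.32. The median of all genes was -0.16, or -0.29 with upper-quartile scaling. These 3 comparisons share libraries in pairs, and their values are not independent of each other.

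**Figure D3:**
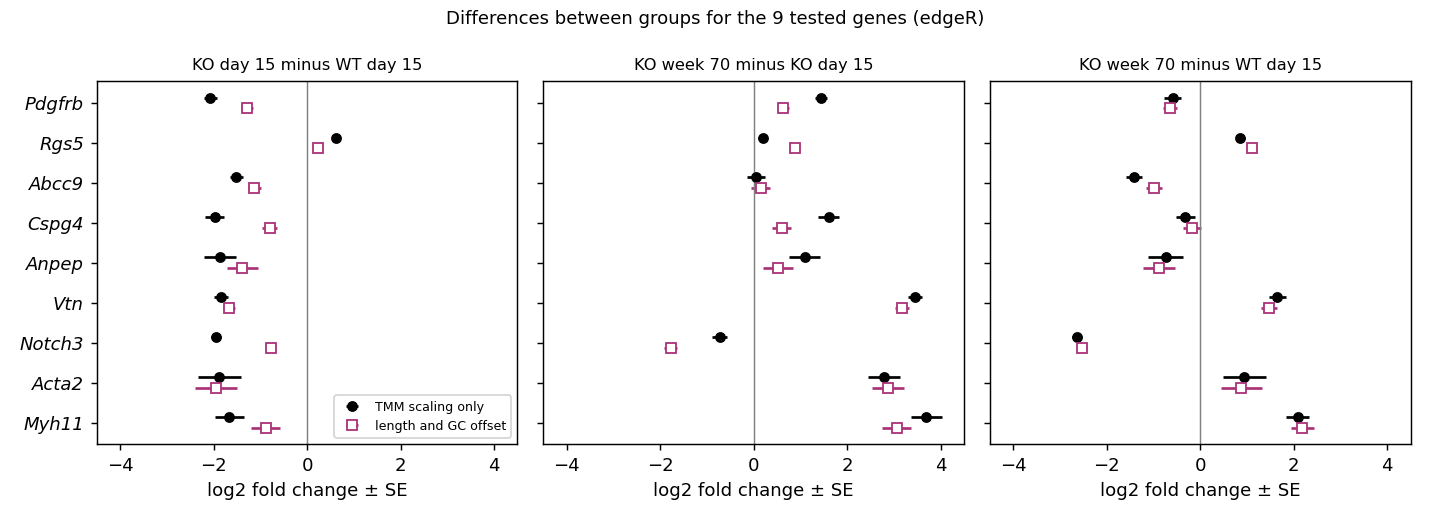
Log2 fold changes with SE for the 9 tested genes in the 3 comparisons. Filled circles are the fits with TMM scaling alone, and open squares are the fits that also correct each library for transcript length and GC content. At day 15 the squares lie nearer to 0 than the circles for 8 of the 9 genes, Acta2 being the exception.

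The day 15 difference of a gene went with the GC content of its transcript over all tested genes, and the members span a wide range of it. Rgs5 has the lowest GC content of the 10, at 41.1%, followed by Abcc9 at 46.2% and Acta2 at 49.6%, and Notch3 and Cspg4 have the highest, at 59.6% and 59.2%. Genes with 40 to 45% GC had a median log2 fold change of 0.36, and those with 55 to 60% one of -0.42. The 8 members that fell lie below the middle 50% of all genes with like GC content, whose lower edge is -0.97 at 55 to 60% and -0.38 at 45 to 50%. Rgs5 lies inside that middle range, from -0.0032 to 0.72 at 40 to 45%.

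**Figure D4:**
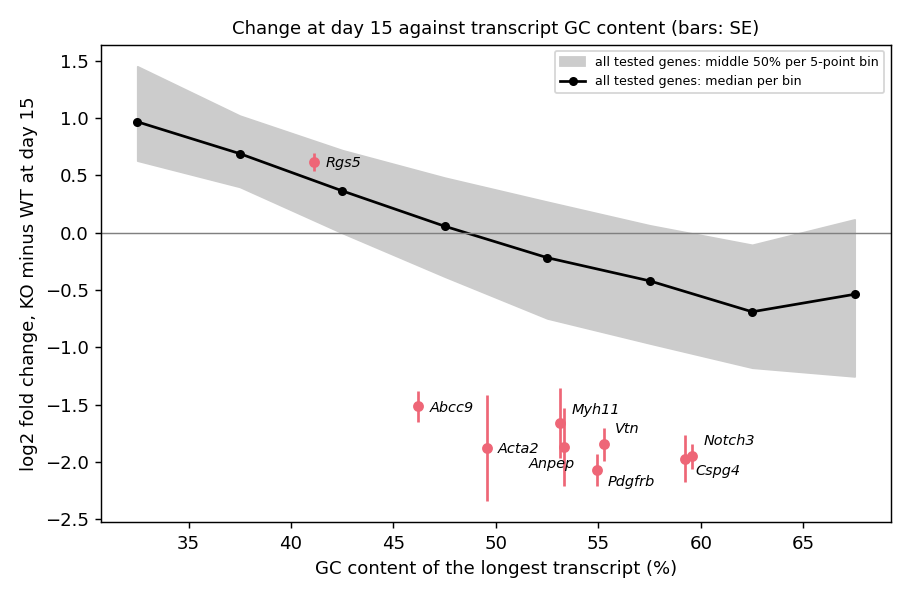
Log2 fold change between the fetal genotypes against the GC content of the longest transcript, for the 9 tested genes (points with SE) and for all tested genes (line at the median, band over the middle 50%, in bins of 5 percentage points). Rgs5 lies within the band and the other 8 below it.

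When length and GC content were entered as an offset, edgeR called the same direction for all 9 genes at day 15, with 8 lower and 1 higher, beside 25.1% and 26% of all genes. The log2 fold changes became -1.28 for Pdgfrb, -1.13 for Abcc9, -0.80 for Cspg4, -1.38 for Anpep, -1.66 for Vtn, -0.76 for Notch3, -1.94 for Acta2 and -0.88 for Myh11. For Rgs5 the value was 0.24 (edgeR adjusted p 0.0151). The members' median was -1.13 and that of all genes 0.03. The size of the fetal difference was thus smaller for the GC-rich Notch3 and Cspg4 by more than 1 on the log2 scale, and changed little for Vtn and Acta2.

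The same offset changed the comparison of the KO ages, in which 6 members were called higher and 1 lower beside 39.6% and 39.2% of all genes. There Rgs5 became 0.88 (edgeR adjusted p 7.04e-06) and was called higher at week 70, Notch3 became -1.78, and Pdgfrb and Cspg4 were at 0.63 and 0.60 and still called, although Cspg4 was at 0.45 and not called (edgeR adjusted p 0.119) when the replicate number was added to this fit as a block. Anpep, at 0.52, was no longer called (edgeR adjusted p 0.17). Vtn, Acta2 and Myh11 stayed high, at 3.17, 2.87 and 3.06.

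Levels can be set between genes only per length, as CPM per kilobase of merged exons. In WT day 15 the order was Rgs5 (15.9 ± 1.35), Vtn (15.2 ± 2.74), Notch3 (12.2 ± 1.03), Pdgfrb (7.81 ± 1.61) and Abcc9 (3.05 ± 0.402), all as SD with n = 3. Rgs5 and Vtn overlapped in range, as did Vtn and Notch3. Acta2, Anpep and Cspg4 followed at 1.96, 1.88 and 1.53 CPM per kilobase and overlapped each other, and Tagln and Myh11 were last at 0.224 and 0.179. In KO day 15 Rgs5 led with 22.9 ± 1.67 CPM per kilobase, ahead of Vtn at 3.97 ± 0.493 and Notch3 at 2.98 ± 0.527 (n = 3), where the lowest Vtn library and the highest Notch3 library were 3.48 and 3.39. At week 70 Vtn led with 46.5 ± 9.24, before Rgs5 at 28.1 ± 1.02 and Pdgfrb at 5.06 ± 0.0636 (n = 2), and Notch3 had moved from the third to the fifth place, with 1.93 ± 0.205, behind Acta2.

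Promoter sequence was looked at because 8 members fell together at day 15, Rgs5 did not, and Vtn and Acta2 rose most with Myh11 at week 70. RefSeq promoters on GRCm38.p6 were matched for 7 members, without Pdgfrb, Tagln and Myh11, and the window searched was the 250 bases before the annotated start, on both strands. The stretches shown stop where an annotated exon begins, and for Acta2, whose window lies largely in annotated exons, only 2 short elements are shown. In the 4 longer stretches capitals mark TGGGAA, the core that the Notch effector RBPJ binds, and TATAAA, the TATA box. In the Acta2 elements they mark only the CArG-like sequences, the binding sites of SRF, here with at most 1 of the 6 middle bases not being adenine or thymine. Each is written from the distal to the proximal end, 5′ to 3′ on the strand of the gene.
Rgs5, chr1:169655251-169655500, plus strand: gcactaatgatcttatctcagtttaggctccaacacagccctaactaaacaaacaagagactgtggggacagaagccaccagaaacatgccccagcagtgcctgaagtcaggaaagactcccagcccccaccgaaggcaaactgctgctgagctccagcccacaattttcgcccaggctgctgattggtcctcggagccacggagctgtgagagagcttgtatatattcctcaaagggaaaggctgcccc
Notch3, chr17:32166891-32167140, minus strand: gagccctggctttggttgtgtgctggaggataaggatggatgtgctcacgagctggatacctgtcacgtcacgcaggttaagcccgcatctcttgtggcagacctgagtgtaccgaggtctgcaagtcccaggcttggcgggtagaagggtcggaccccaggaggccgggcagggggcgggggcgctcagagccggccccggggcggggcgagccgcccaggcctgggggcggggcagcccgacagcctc
Abcc9, chr6:142702316-142702524, minus strand: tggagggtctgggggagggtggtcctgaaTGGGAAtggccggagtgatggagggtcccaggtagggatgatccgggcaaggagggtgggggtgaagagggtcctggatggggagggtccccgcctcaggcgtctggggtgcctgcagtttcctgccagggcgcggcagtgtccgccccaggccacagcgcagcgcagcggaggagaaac
Vtn, chr11:78498870-78499090, plus strand: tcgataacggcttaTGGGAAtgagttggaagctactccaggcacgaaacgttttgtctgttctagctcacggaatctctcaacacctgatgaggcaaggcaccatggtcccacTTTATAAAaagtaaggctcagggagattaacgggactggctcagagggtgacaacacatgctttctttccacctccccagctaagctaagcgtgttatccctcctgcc
Acta2 distal element, chr19:34255438-34255467, minus strand: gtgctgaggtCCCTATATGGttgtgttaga
Acta2 proximal element, chr19:34255388-34255417, minus strand: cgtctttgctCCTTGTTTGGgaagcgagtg

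The 2 CArG-like elements of Acta2 lie 84 to 75 and 34 to 25 bases before the start, and the proximal one overlaps an RBPJ core. The other 6 promoters held no CArG-like element, which 8.59% of all 32851 promoters of the table hold. A strict CArG box, with adenine or thymine at all 6 middle bases, was in none of the 7 and in 1.47% of all. TGGGAA was in 3 of the 7 (Abcc9, Vtn and Acta2) and in 21.6% of all, and TATAAA in Vtn, on both strands in overlap, and in 12.4% of all. The window of Rgs5 has 53.6% GC and that of Notch3 68.8%, beside a median of 52.4% over all promoters. These matches describe the letters only.

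The lists of further genes overlap in part: Des is in the mural and the contractile list, Eng, Tek and Tie1 are also in the endothelial list and Pdgfra in the fibroblast list. All list counts stand beside the shares over all tested genes. At day 15 these were 32.5% called lower and 30.1% higher, or 25.1% and 26% after the offset. Between the KO ages 44.4% were called lower and 37.6% higher at week 70. The remaining genes of mural cells were read from a list of 20. At day 15, 19 were tested, 12 were called lower in KO and 2 higher, with a median log2 fold change of -0.93, and without WT replicate 1 the counts were 11 and 2. Cd248, for endosialin, a surface protein of mural cells and fibroblasts, had 620, 290 and 363 counts across the WT brains and 36, 29 and 26 across the fetal KO brains, with an edgeR log2 fold change of -3.50 (adjusted p 1.38e-06, SE 0.271). The transcription factor gene Zic1, which neural cells of the dorsal brain express too, changed by -0.90 (edgeR adjusted p 5.67e-07). Foxf2, a factor of brain pericytes, changed by -2.14 and Ednra, the endothelin receptor of smooth muscle, by -1.72. The 2 that rose were Higd1b, a pericyte gene, with 27, 19 and 24 counts across the WT brains and 64, 63 and 77 across the fetal KO brains (edgeR log2 fold change 1.83, adjusted p 4.21e-05), and Rgs4, with a log2 fold change of 0.44 (edgeR adjusted p 0.000747). Higd1b was at 1.46 and called after the length and GC offset, where Rgs4, at 0.14, was not. Kcnj8, which encodes the pore that pairs with the Abcc9 product, had 175, 122 and 152 counts across the WT brains and 120, 110 and 107 across the fetal KO brains, and its log2 value of -0.12 was not called (edgeR adjusted p 0.511). The subunit genes of this potassium channel therefore had unlike values at day 15, -1.51 and -0.12.

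At week 70 all 20 were tested, and 12 were called higher and 4 lower than in KO day 15, with a median of 0.89. Higd1b was now lower, at -1.16 (edgeR adjusted p 0.00711), but 0.12 after the offset. Kcnj8 was lower as well (-0.62, edgeR adjusted p 0.0226).

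Of 16 contractile and cytoskeletal genes outside the members, 13 were tested at day 15, of which 7 were called lower and 1, Myl6, higher. Cnn1, Actg2 and Pln, the other 3, held at most 8, 14 and 8 counts in any library. Without WT replicate 1, 6 genes of this list were called lower and 1 higher. Vcl, for vinculin, changed by -1.32 (edgeR adjusted p 5.7e-06, SE 0.124) and Tln1, for talin, by -0.85, and Myl6, a myosin light chain of nonmuscle and smooth muscle cells, by 0.78 (edgeR adjusted p 8.06e-07, SE 0.0559). After the offset 3 were called lower and 3 higher, and Tln1 stood at 0.21 (edgeR adjusted p 0.0706), so that the direction of this list was not stable. Its median went from -0.57 to -0.01. At week 70, 9 of 13 were called higher than in KO day 15 and 2, Flna and Sncg, lower.

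The gene for SRF was lower in KO at day 15 (-0.89, edgeR adjusted p 3.27e-06). That of its cofactor Mrtfa was lower as well (-1.32, edgeR adjusted p 1.18e-07). After the offset Srf was at -0.08 and not called (edgeR adjusted p 0.368). Mrtfa was at -0.47 there and still called (edgeR adjusted p 0.000252). Mef2c, a partner factor, was the only 1 of the 5 tested that was called higher at day 15, at 0.16 (edgeR adjusted p 0.0448), but not without WT replicate 1, without KO replicate 2 or after the offset. Myocd, for myocardin, reached no more than 7 counts per library and stayed untested. Srf, Mrtfa, Mrtfb, Klf4 and Mef2c, all 5 that were tested, were called higher at week 70 than in KO day 15.

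The ligand of the Pdgfrb receptor fell with it. Pdgfb had 291, 268 and 288 counts across the WT brains, 117, 121 and 93 across those of KO day 15, and 536 and 522 at week 70, without overlap between the groups. Its log2 fold changes were -1.07 between the fetal genotypes (edgeR adjusted p 4.3e-05, SE 0.131) and 2.38 between the KO ages (edgeR adjusted p 8.1e-08). The day 15 value was -0.38 after the offset (edgeR adjusted p 0.0159). Of 7 genes of PDGF signalling outside the members, which are 4 ligands, the receptor gene Pdgfra, the receptor-like gene Pdgfrl and the co-receptor gene Nrp1, 5 were called lower in KO at day 15 and 0 higher. Nrp1, which endothelial and neural cells also express, had the smallest p of them (-0.63, edgeR adjusted p 2.34e-06), while Pdgfa (0.06) and Pdgfd (0.33) were not called.

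All 11 Notch ligands, partners and targets tested were called lower in KO at day 15, beside 32.5% of all tested genes. Their median was -0.79, and 10 of 11 were called lower without KO replicate 2. Heyl, a Notch target of vascular smooth muscle, had 299, 186 and 240 counts across the WT brains and 52, 47 and 29 across the fetal KO brains (edgeR log2 fold change -2.21, adjusted p 1.15e-05, SE 0.227), and 167 in each week 70 library. Notch1 changed by -2.20 and Dll1 by -0.82, with edgeR adjusted p of 1.59e-08 and 1.09e-06. After the offset 8 of the 11 were called lower and 1 higher, Jag2, at 0.63 in place of -0.46. Between the KO ages Heyl rose by 2.08 (edgeR adjusted p 2.73e-05) while Notch3 fell, and 2 of the 11 were called higher and 4 lower.

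Of the 13 genes of the TGF-beta pathway, which drives smooth muscle differentiation, 12 were called lower at day 15 and 10 higher at week 70 than in KO day 15, with medians of -1.35 and 2.20. Smad3 changed by -1.78 (edgeR adjusted p 4.62e-07, SE 0.118) and Smad4 by -0.72 at day 15, and the receptor gene Tgfbr2 had 664, 300 and 428 counts across the WT brains and 74, 97 and 105 across the fetal KO brains (edgeR log2 fold change -2.04, adjusted p 3.08e-05). After the offset 12 of the 13 were again called lower at day 15, with a median of -0.81.

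Of 9 genes of angiopoietin, sphingosine phosphate and related recruitment signals, 6 were called lower and 1 higher at day 15. Without WT replicate 1 the counts were 5 and 2, and without KO replicate 2 they were 5 and 1. The 1 that rose with all libraries was Angpt1, the ligand that pericytes send to endothelial cells. It had 265, 146 and 125 counts across the WT brains and 234, 316 and 313 across the fetal KO brains (edgeR log2 fold change 0.98, adjusted p 0.00267, SE 0.219). Raw counts overlapped, but the KO libraries were shallower. The mean levels were 8.83 ± 3.32 CPM in WT and 16.4 ± 2.11 in KO day 15 (SD, n = 3 each). After the offset the log2 value was 0.49 and not called (edgeR adjusted p 0.0727). Its receptor gene Tek changed by -1.19 and the related Tie1 by -1.90.

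The endothelial genes next to which mural cells lie moved in the same directions. Of 12 markers, 10 were called lower at day 15 and 1, Egfl7, higher, with a median of -1.34, though 0 were called higher without KO replicate 2, and 11 were called higher at week 70 than in KO day 15, with a median of 1.73. Their summed level was 259 to 365 CPM in WT, 100.04 to 122 in KO day 15 and 416 to 444 at week 70. No endothelial marker was at 0 in any library. Kdr, the VEGF receptor gene, and Cdh5 had the smallest p at day 15, with log2 fold changes of -2.13 and -3.07 (edgeR adjusted p 1.19e-07 and 1.96e-07). Whether mural genes changed more than endothelial genes depended on the gene chosen. Per count of Pecam1, the libraries held 1.85, 1.56 and 1.71 counts of Pdgfrb in WT and 1.12, 0.924 and 1.14 in KO day 15, a lower ratio in KO. Per count of Cdh5, the gene of the endothelial cadherin, they held 0.899, 0.976 and 1.03 in WT and 1.77, 2.01 and 2 in KO, a higher one. At week 70 the ratio to Pecam1 was 0.675 and 0.838 and that to Cdh5 was 1.06 and 1.24.

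Of the 12 fibroblast and meninges markers, 8 were called lower in KO at day 15 and 0 higher, with a median of -1.55, or 7 lower and 2 higher without WT replicate 1. Foxc1 (-2.19) and Aldh1a2 (-1.75) had the smallest p (edgeR adjusted p 1.78e-05 and 2.54e-05). Their summed range was 347 to 4597 CPM in WT, 83.4 to 162 in KO day 15 and 196 to 227 at week 70, and no defining marker was at 0. Pdgfrb, Anpep, Cd248 and Acta2 are also expressed in these cells, and their part in the member results was not tested. Cavin1, which encodes the caveolar coat protein that pericytes and endothelium share, had 1179, 479 and 598 counts across the WT brains, 108, 155 and 100 across those of KO day 15, and 687 and 665 at week 70. Of the 7 caveolar genes 5 were called lower in KO at day 15, among them Cav1, the gene knocked out, whose fall the design fixes. Pacsin2 (-0.91) had the smallest p after Cav1. The 1 called higher was Cav2, at 1.55, or 0.72 and still called after the offset (edgeR adjusted p 0.00718).

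**Figure D5:**
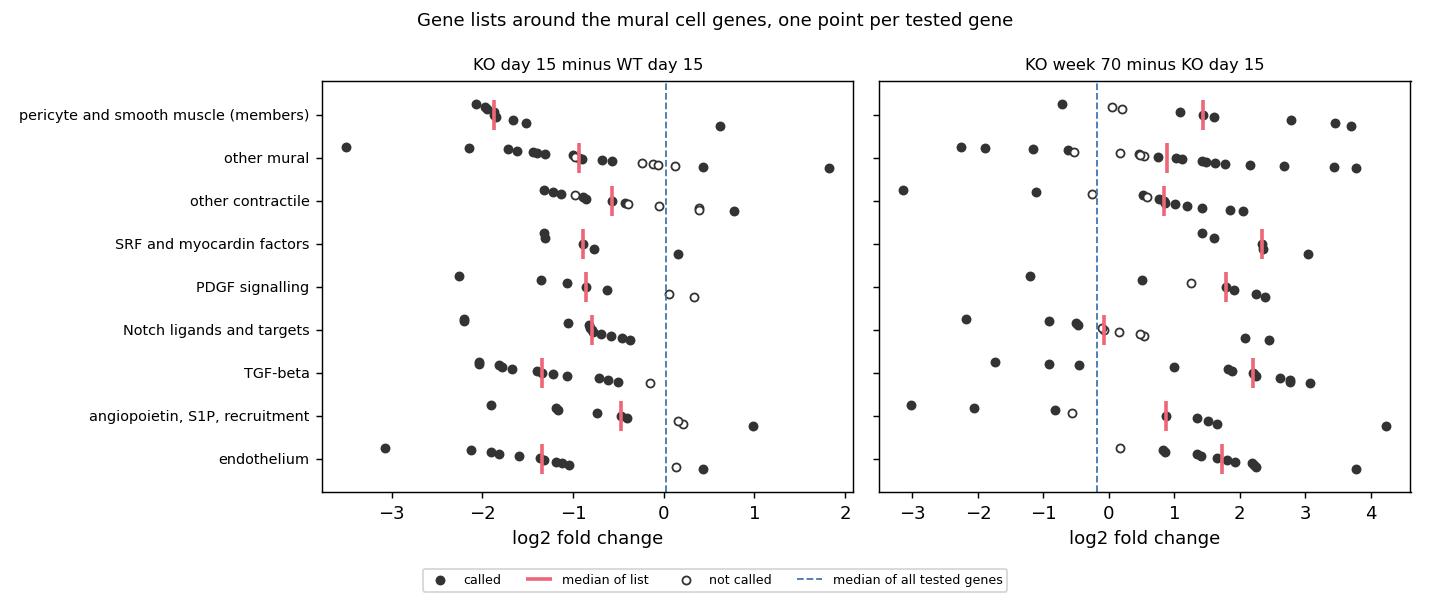
Log2 fold changes of each tested gene in the member list and 8 lists around it, for the fetal genotypes (left) and for the KO ages (right). Filled points were called and open points were not, the red bar is the median of the list and the dashed line the median of all tested genes, at 0.03 and -0.19. The members' median at day 15 is -1.87, and Rgs5 stands alone among them to the right of 0.

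The genes whose profile over the 8 libraries lay nearest to the mean profile of the 7 pericyte members were Lrrc32, S1pr3, Wasf2, Gata2 and Rrbp1, out of 12864 candidates. The measure was the root mean square difference of centred log2 CPM, which was 0.108 for Lrrc32 and 0.132 for Rrbp1. S1pr3, a sphingosine phosphate receptor of smooth muscle and a gene of the mural list, had 439, 227 and 290 counts across the WT brains, 85, 94 and 74 across those of KO day 15, and 164 and 173 at week 70. Of the members themselves, Pdgfrb lay nearest to the mean at 0.257, and Vtn, Rgs5 and Notch3 farthest, at 0.988, 0.929 and 0.882, so that the mean hides 3 unlike profiles. For Acta2, Tagln and Myh11 the nearest were Il6st, Myadm, H6pd, Nucb1 and Sema3b, from 0.142 to 0.165, while the 3 members lay 0.483, 0.961 and 0.641 from their own mean.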

How the data were processed

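The authors deposited raw read counts per Ensembl gene, 1 column for each of the 8 libraries, per the file headers. FastQC, cutadapt, Trimmomatic, HISAT2, featureCounts and edgeR, and the builds GRCm38 and GRCm39, are named without roles in the submitters' processing notes. Strandedness and the handling of multi-mapping reads are not given in the sources used here. Per the labels' protocols, messenger RNA was taken on oligo-dT beads, which favours intact transcripts, and cDNA was primed with random hexamers. Replicates are called biological in the protocol for the fetal brains, and where week 70 libraries came from is not stated, so p-values measure the spread between these samples.

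Each comparison was fitted on its own 2 groups with edgeR 4.0.16 in R 4.3.3 (filterByExpr, TMM, two-sided quasi-likelihood F-test, Benjamini-Hochberg over all tested genes, threshold 0.05). Standard errors follow from the F statistic. CPM were scaled by TMM over all 8 libraries, so that ratios of the printed means differ slightly from the fitted values. A count of 3, the most that a gene read at 0 could plausibly hold, is 0.143 to 0.206 CPM, for counting error only. In no group were 2 libraries alike within sampling noise. The offset for length and GC content took, per library, the log2 deviations of genes from their means and smoothed them on the length and GC content of the longest GENCODE M21 transcript (GRCm38, 97.3% of identifiers matched) with mgcv 1.9.3. Other settings tried were DESeq2 1.42.0, scaling by RLE or by the upper quartile, a filter at a mean of 10 counts or none, a joint fit of the 8 libraries, the replicate block, and each library left out.

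Members and lists, some of which share genes, were chosen with earlier results of these data known. Named genes were all members, the 2 called genes with the smallest adjusted p in each direction of each list, list genes that define a pathway, and the 5 nearest profiles among genes with a mean of at least 50 counts. Foxf2, Ednra, Kcnj8, Tgfbr2, Heyl, Jag2, Ttr, Actc1, Cnn1, Actg2, Pln, Flna, Sncg, Klf4, Mrtfb, Pdgfd, Cavin1, Slc1a3, Ptprz1, Vcan, Cspg5 and Tmem119 were named after their values were seen. The scripts were tested on simulated data, with 200 of 18803 genes shifted by a log2 value of 1 in the fetal comparison. There edgeR recovered 90.5%, and 7.65% of its calls were false, a share above the threshold of 0.05. The shifted genes had a mean of at least 50 counts and went up and down equally, and no GC trend was simulated. In the data 11993 of 19147 genes were called, and the error rate under such a broad change was not measured.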

Additional observations from a re-analysis of the deposited data

How the results depend on the processing

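At day 15 the 9 tested members kept their direction in all 15 alternatives and their call in 134 of 135 values. The exception was Myh11 with the replicate block and the length and GC offset together (-0.88, edgeR adjusted p 0.0757). Leaving out 1 library gave 10998 to 11365 called genes and 9 called members at day 15, 15534 to 16923 and 7 to 8 between the KO ages, and 14105 to 15366 and 5 to 7 for week 70 against fetal WT. Fits without a week 70 library have 1 sample in that arm, whose spread is then taken from the fetal group. The filter let Tagln be tested in those against WT, where it was not called, and in fits with no low-count filter. The values of 2 genes without a call had no stable sign between the KO ages: Rgs5 was -0.051 with upper-quartile scaling, and Abcc9 was -0.19 with it, -0.070 with the replicate block, and between -0.079 and 0.186 when 1 library was left out. Rgs5 was called higher at week 70 with all 8 libraries in one fit (0.30), with the offset, alone or with the replicate block (0.88 in each), and without KO day 15 replicate 3 (0.24). In all, 114 of the 126 values between the KO ages and 120 of the 126 for week 70 against fetal WT kept direction and side of the threshold, and 3 and 2 lost their call. The 3 were Anpep with the offset (0.52) and, with the block and the offset, Anpep (0.67) and Cspg4 (0.45), and the 2 were Pdgfrb without each week 70 library. Same-numbered fetal libraries did not deviate together (r from -0.19 to -0.16 over 19147 genes), and the other fetal pairs gave r from 0.070 to 0.098. Deviations were taken from the group means, so these values are not independent of each other. No pairing by number was seen, and a shared litter or handling, which the labels do not give, could not be tested. With the replicate block 11184, 14876 and 13244 genes and 9, 7 and 6 members were called in the 3 comparisons. Depth limits Tagln and the fetal Myh11 most. No group had the 4 libraries that a test for outlying samples needs.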
